A study of Rattus norvegicus with 9 samples.

Results

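The transcripts of 48 genes of TGF-β, BMP and activin signalling were compared between rat cardiosphere-derived cells (CDCs) cultured on 3 substrates. The genes were taken from a fixed list of ligands, receptors, Smads, antagonists and targets by matching their symbols to the expression table, which lists 19919 genes, and all 48 were found. Of these, 45 had an FPKM (fragments per length of gene and size of library) of at least 1 in at least 3 libraries and were tested. Bmp7, Acvr2b and Chrdl1 did not reach that level and are given by their values only.

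Ligands of this family are secreted as dimers, and the TGF-β ligands stay inactive in the matrix, bound by latent TGF-β binding proteins, until they are released. A ligand joins a type II to a type I receptor kinase, which phosphorylates receptor Smads, of which Smad2 and Smad3 carry TGF-β and activin signals and Smad1 and Smad5 carry BMP signals. These enter the nucleus with Smad4, while soluble antagonists trap ligands outside the cell, and inhibitory Smads and Smurf ubiquitin ligases damp the signal inside it. In the heart, TGF-β is known for turning stromal cells into contractile, collagen-producing myofibroblasts, and BMPs for cardiac development.

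CDCs are stromal cells grown out of heart tissue, here wild type and, by the study's methods, from the left ventricular septum of 4-week-old male Sprague Dawley rats. They were kept for 3 days on polystyrene (PS), where attached cells draw together into spheroids that rest on a layer of supporting cells, on an ultralow attachment (ULA) surface, where suspended cells pile into aggregates, or on a liquid crystal film of octyl hydroxypropyl cellulose ester (OPC), where cells attach briefly and then round up into spheroids. RNA-Seq libraries were made from 3 biological replicates of each group. Whether separate animals gave these replicates is not stated, and the p-values describe only how much the cultures varied.

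The 9 libraries were of similar depth, which by the step size of low values was 0.874 to 1.18 relative to PS replicate 1, and summed to 444736.4 to 460731.7 FPKM. Their depth in reads is unknown, and counting error could not be computed. All 9 mesenchymal markers searched were at or above 1 FPKM in at least 3 libraries. Their sum, most of it Col1a1, was 8901 to 9339 FPKM in PS, 5636 to 6170 in ULA and 5478 to 5655 in OPC. Single genes split, with Thy1 lower and Pdgfra higher on both ULA and OPC than on PS. Of the other markers, 6 of 8 cardiomyocyte genes, 5 of 7 leukocyte genes (Ptprc, Adgre1, Csf1r, Aif1 and Cd3e), 3 of 4 endothelial genes (Kdr, Tek and Vwf), 1 of 4 pericyte genes (Rgs5) and 1 of 6 smooth muscle genes (Des) stayed under 1 FPKM in every library. The smooth muscle list summed to 4405 to 4486 FPKM in PS, 86.3 to 90.5 in ULA and 159.0 to 268 in OPC. The leukocyte list summed to 3.35 to 3.97 FPKM in PS, 41.4 to 41.8 in ULA and 22.6 to 26.6 in OPC. Most of it was Cd68, a lysosomal protein of macrophages that averaged 3.04 ± 0.353, 39.8 ± 0.218 and 23.9 ± 2.20 FPKM. Lyz2, a lysozyme, was also called higher in ULA than in PS. It reached 1 FPKM only in the ULA libraries, at 1.09 to 1.23 FPKM, so that a difference was built in. The pericyte sum was 34.9 to 36.0 FPKM in PS, 56.7 to 61.2 in ULA and 122.9 to 132 in OPC. Its genes split, as Abcc9 averaged 17.8, 35.1 and 99.1 FPKM and Kcnj8 5.02, 15.6 and 25.9. Cspg4 instead fell, with means of 12.6, 7.98 and 3.46 FPKM in PS, ULA and OPC. The Schwann cell sum was 4.69 to 5.55 FPKM in PS, 21.7 to 22.6 in ULA and 18.1 to 20.4 in OPC. The endothelial sum, mostly Erg, an ETS factor, was 4.61 to 5.38 FPKM in PS, 4.59 to 5.22 in ULA and 3.04 to 3.20 in OPC, and the cardiomyocyte sum was at most 3.47 FPKM in any library. These lists moved with the groups, and their part in the results was not tested. In bulk RNA, fewer cells of a type and less RNA per cell cannot be told apart.

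On PS, the cells carried the most RNA for Tgfb2, Tgfb3, Bmp4, Bmp6, Inhba and Inhbb, and for the antagonists Fstl1 and Grem1. Both other substrates lowered these ligands and raised Bmp2, the receptor genes Tgfbr3 and Acvr1b, and Ltbp3. The genes of the receptor Smads and Smad4 moved little. The OPC group differed from the ULA group above all in more Bmp2, Bmp4, Inhbb, Grem1, Gdf15 and Id3, and in less Fstl3.

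Differences were tested on log2(FPKM + 1) in 1 limma fit of all 9 libraries, with p-values adjusted over 12513 genes. A gene was called at an adjusted p of at most 0.05, and called a DEG where its |log2FC| was also at least 1. Because of the added 1, log2FC understates the change of genes with low values. Compared to the PS group, 17 of the 45 tested members were higher in the ULA group, which is near the background of 38.4% of all genes, and 24 were lower, against 30.5% of all genes. DEGs numbered 6 higher (8.42% of all genes) and 13 lower (7.39% of all genes). The median log2FC of the members was -0.30, beside 0.062 over all genes.

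Compared to the PS group, 19 members were higher in the OPC group (40.4% of all genes) and 18 were lower (23.9% of all genes). Of these, 7 higher (6.60% of all genes) and 10 lower (6.11% of all genes) were DEGs, and the median log2FC was 0.07, beside 0.115 over all genes. Compared to the ULA group, 26 members were higher in the OPC group (32.2% of all genes) and 10 were lower (21.7% of all genes). DEGs were 7 higher (1.81% of all genes) and 1 lower (2.52% of all genes), and the median log2FC was 0.34, beside 0.059 over all genes. Rescaling the libraries to 1 upper quartile left the members at 24 higher and 11 lower, although the calls over all genes went from 4034 higher and 2717 lower to 3294 higher and 3318 lower. With that rescaling, OPC vs PS went from 5059 higher and 2994 lower genes to 4269 higher and 3582 lower, and the members to 17 higher and 19 lower. Both comparisons with PS use the same PS libraries, so they are set side by side and not read as 2 independent results.

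**Figure D1:**
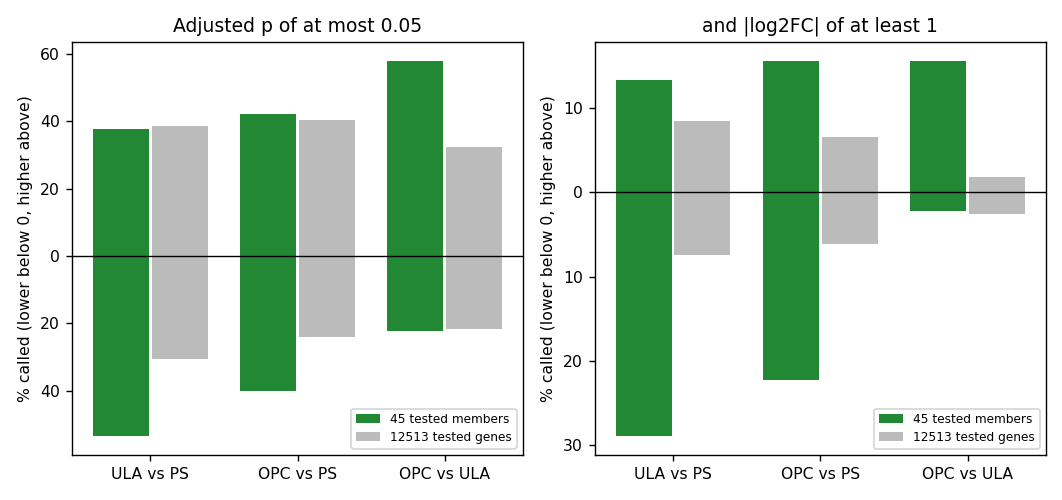
Percentage of the 45 tested members (green) and of all 12513 tested genes (grey) called higher (above 0) or lower (below 0) in each comparison, at an adjusted p of at most 0.05 (left) and with a |log2FC| of at least 1 as well (right). On the left the green bars exceed the grey ones by most for lower genes in both comparisons with PS and for higher genes in OPC vs ULA, and on the right every green bar exceeds the grey one except that for lower genes in OPC vs ULA. The green bars include Gdf10, Tgfbi and Nog, which were tested only through the groups where they were high.

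In all 3 comparisons the 3 libraries of 1 group lay wholly above or below those of the other for 33 of the 45 members, against 37.9% of all genes. The OPC mean lay between the PS and ULA means for 25 members, above both for 15 (35.7% of all genes) and below both for 5 (18.4% of all genes). Smad1 was the only tested member called in no comparison, against 16.6% of all genes. Gdf10 and Tgfbi were under 1 FPKM in every PS library and Gdf10 and Nog in every ULA library. They passed the filter through the groups where they were high, so that a difference between groups was built in. Without these 3 members, 16 were higher and 23 lower in ULA vs PS, 17 and 17 in OPC vs PS, and 25 and 9 in OPC vs ULA. The DEG counts above still include Tgfbi and Gdf10. Tgfbi was among the DEGs higher in ULA vs PS, Gdf10 among those higher in OPC vs ULA, and both among those higher in OPC vs PS. Both were also among the 33 members whose groups did not overlap.

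**Figure D2:**
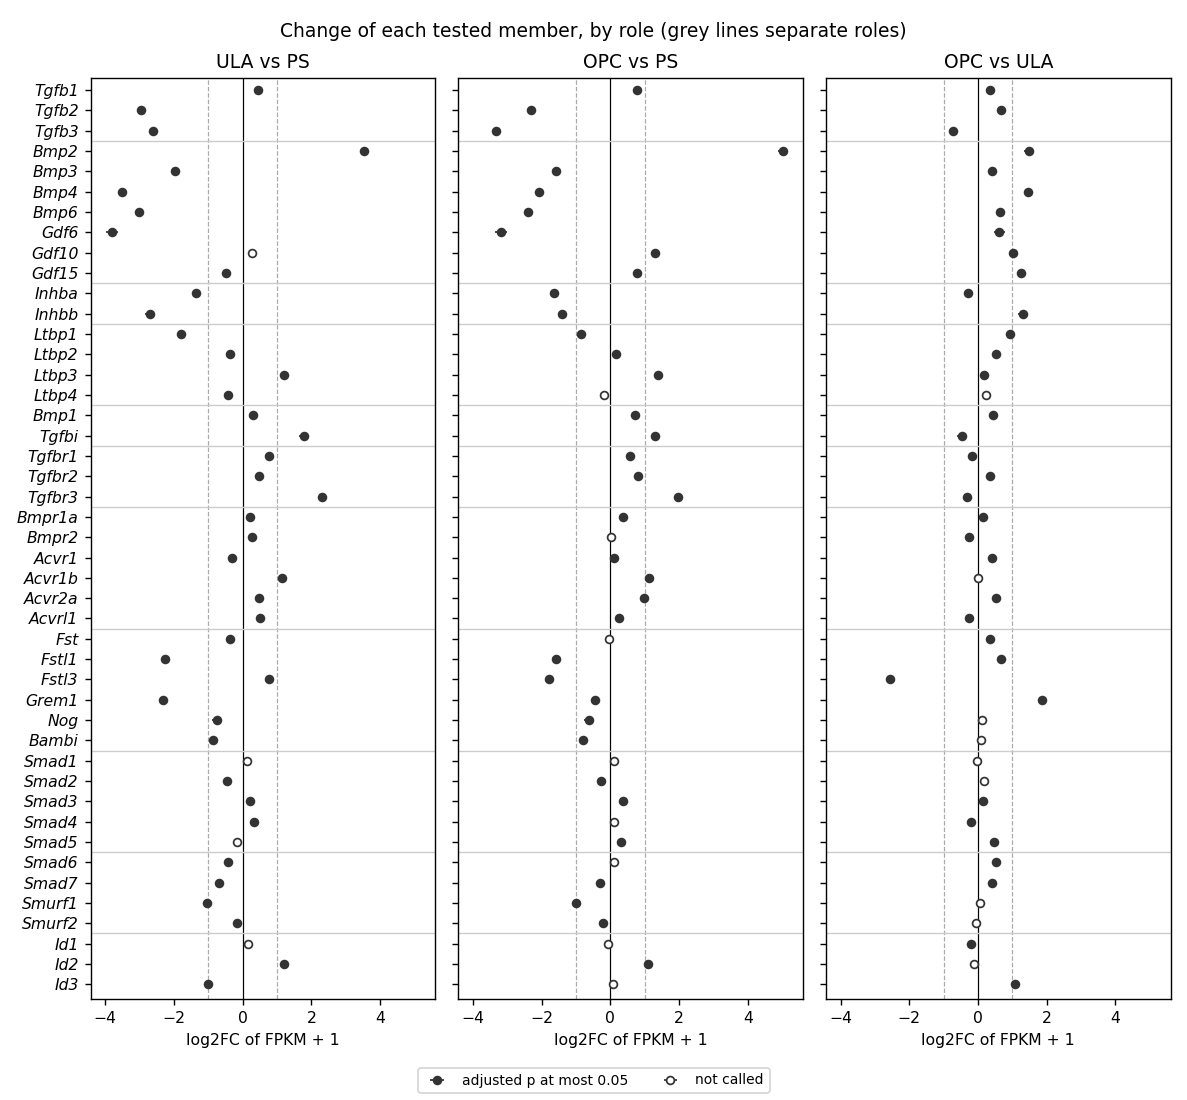
log2FC with its standard error (horizontal bars, mostly smaller than the points) of the 45 tested members in ULA vs PS, OPC vs PS and OPC vs ULA, ordered by role from ligands at the top to Id genes at the bottom. Filled points were called at an adjusted p of at most 0.05, and dashed lines mark a log2FC of -1 and 1. Most ligands lie left of 0 in the first panel, with Bmp2 far to the right, and receptors lie right of 0.

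The promoters of Id3, Smad7, Grem1 and Bmp4 are shown as examples of a BMP target, an inhibitory Smad, a BMP antagonist and a BMP ligand. All were lower in ULA than in PS and higher in OPC than in ULA. Other members shared these calls, among them Tgfb2, Bmp6, Inhbb and Fstl1. Each run is the 250 bases before the gene's start in RefSeq on the GRCr8 assembly, written 5′ to 3′ on the gene's own strand, with motif matches in capitals. Motifs were searched on both strands, where CAGAC (reverse strand GTCTG) is the Smad box and GGCGCC a GC element of BMP-responsive genes.
Id3, chr5:153656041-153656290, plus strand: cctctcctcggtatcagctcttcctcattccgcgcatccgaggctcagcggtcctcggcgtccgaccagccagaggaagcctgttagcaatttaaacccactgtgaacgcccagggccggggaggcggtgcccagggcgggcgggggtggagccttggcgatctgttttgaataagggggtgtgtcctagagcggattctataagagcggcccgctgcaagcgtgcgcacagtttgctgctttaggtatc
Smad7, chr18:71263258-71263507, plus strand: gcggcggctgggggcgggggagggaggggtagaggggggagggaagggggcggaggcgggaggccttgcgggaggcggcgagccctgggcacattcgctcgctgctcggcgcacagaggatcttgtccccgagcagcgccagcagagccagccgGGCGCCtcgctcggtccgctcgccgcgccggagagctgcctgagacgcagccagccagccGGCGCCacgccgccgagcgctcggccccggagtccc
Grem1, chr3:120978320-120978569, minus strand: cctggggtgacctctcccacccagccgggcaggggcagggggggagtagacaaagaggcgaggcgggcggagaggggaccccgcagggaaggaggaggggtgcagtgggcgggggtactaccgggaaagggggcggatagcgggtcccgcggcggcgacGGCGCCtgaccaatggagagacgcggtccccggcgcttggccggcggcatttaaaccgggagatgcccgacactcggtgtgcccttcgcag
Bmp4, chr15:22101934-22102183, minus strand: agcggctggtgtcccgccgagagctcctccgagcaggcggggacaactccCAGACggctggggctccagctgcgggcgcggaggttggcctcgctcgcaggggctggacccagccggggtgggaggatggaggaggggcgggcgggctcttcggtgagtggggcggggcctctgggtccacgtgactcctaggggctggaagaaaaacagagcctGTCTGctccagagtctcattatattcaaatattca
Smad7 held GGCGCC at 2 positions and Grem1 at 1, Bmp4 held the Smad box at 2 positions, and the Id3 run held neither. Promoter runs were found for 39 of the 48 members. Among these, GGCGCC occurred in 11, or 28.2%, against 9.12% of all 27457 promoter runs of that length, and CAGAC in 6, or 15.4%, against 42.6%. The palindrome GTCTAGAC, which Smad3 and Smad4 bind, occurred in 0 members and in 0.182% of all runs. The runs shown were 61.2% (Id3) to 78% (Smad7) G or C. Members and all runs were not matched for base content, and its part in these shares was not tested. These are matches of letters in 250 bases, and binding was not measured.

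Among the TGF-β ligands, Tgfb2 and Tgfb3 were lower and Tgfb1 was higher on both ULA and OPC than on PS. Tgfb2, on chromosome 13 from 105039853 to 105141030 of rn6, had 344, 334 and 334 FPKM in the PS libraries, 42.5, 43.4 and 40.6 in the ULA libraries and 66.7, 60.4 and 75.1 in the OPC libraries. Its log2FC was -2.97 in ULA vs PS (SE 0.07, adjusted p = 6.13e-10, limma) and -2.31 in OPC vs PS (adjusted p = 3.96e-09, limma). The 3 groups did not overlap, and the OPC libraries sat above the ULA ones. An unnamed RNA gene overlaps Tgfb2 on the opposite strand, and no source states if reads were counted by strand.

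Tgfb3, on chromosome 6 from 109913757 to 109935533, had 349.6, 347 and 349 FPKM in PS, 54.8, 55.9 and 58.2 in ULA and 32.9, 29.9 and 38.0 in OPC. It was the ligand of the 3 that was lower in OPC than in ULA, with a log2FC of -0.73 (SE 0.07, adjusted p = 2.52e-05, limma), after -2.61 in ULA vs PS and -3.34 in OPC vs PS. Tgfb1 was not a DEG and went the other way, from 89.4 ± 1.47 FPKM (SD, n = 3) in PS to 121 ± 3.04 in ULA and 154 ± 5.65 in OPC, with log2FC of 0.43 and 0.77 against PS. The make-up of the TGF-β ligand RNA changed accordingly. The 3 genes summed to 775 ± 7.85 FPKM in PS, 219 ± 2.29 in ULA and 255 ± 6.19 in OPC, and the share of Tgfb1 in that sum was 11.5 ± 0.0780%, 55.1 ± 0.840% and 60.4 ± 3.55%.

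**Figure D3:**
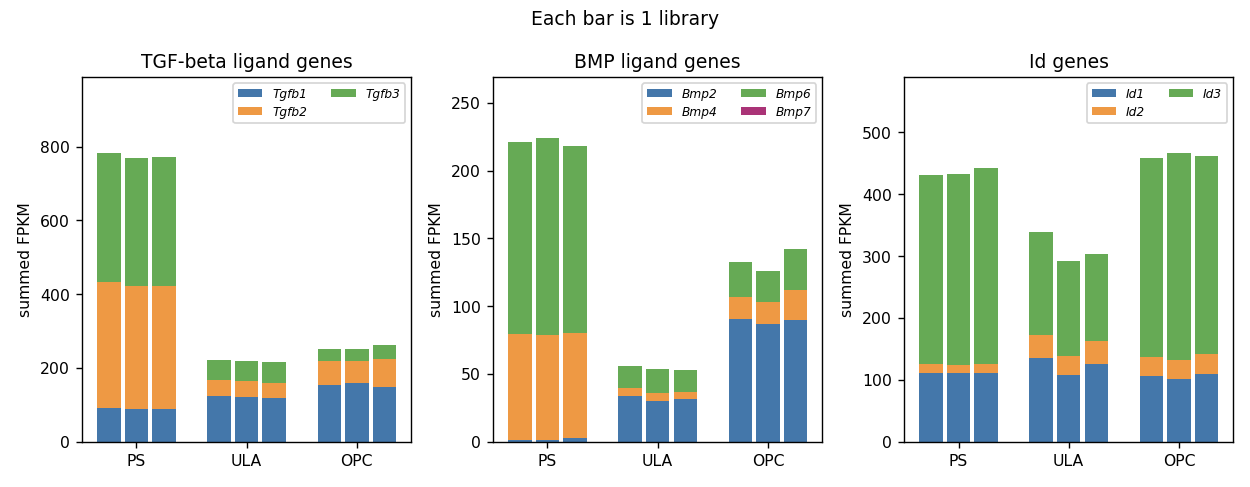
Summed FPKM of the TGF-β ligand genes (left), 4 BMP genes (middle) and Id genes (right), with 1 bar per library and 1 colour per gene. Tgfb2 and Tgfb3 make up most of the PS bars and Tgfb1 most of the others, Bmp2 (blue) fills most of the BMP bars in ULA and OPC, and Id3 (green) is shorter in ULA.

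The BMP and GDF ligands moved in opposite directions. Bmp2 rose on both substrates, whereas Bmp3, Bmp4, Bmp6 and Gdf6 fell. Bmp2, an inducer of bone and of cardiac cushion tissue, lies on chromosome 3 from 126335863 to 126346318 and had 1.39, 1.49 and 2.69 FPKM in PS, 33.6, 29.9 and 31.4 in ULA and 90.8, 87.1 and 90.1 in OPC. Its log2FC was 3.54 in ULA vs PS (SE 0.14, adjusted p = 1.81e-08, limma) and 5.01 in OPC vs PS (SE 0.14, adjusted p = 3.18e-09, limma), the largest of any member in that comparison. Every OPC library was above every ULA library, with a log2FC of 1.47 (SE 0.14, adjusted p = 2.39e-05, limma).

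Bmp4, which signals through the same receptors, lies on chromosome 15 from 20776054 to 20822740 and had 77.9, 77.3 and 77.7 FPKM in PS, 5.83, 6.36 and 5.46 in ULA and 15.7, 16.3 and 21.6 in OPC. Its log2FC was -3.52 in ULA vs PS (SE 0.10, adjusted p = 2.48e-09, limma), and it was higher in OPC than in ULA by 1.44 (SE 0.10, adjusted p = 3.72e-06, limma). OPC replicate 3 was the highest of the OPC libraries, and all 3 stayed far below PS. Bmp6, a further BMP of the same signalling branch, had 142, 145 and 138 FPKM in PS, 16.2, 17.4 and 15.9 in ULA and 25.9, 22.3 and 30.5 in OPC, with no overlap between groups. Gdf6, a BMP-like ligand of joints, had 62.8, 63.3 and 64.6 FPKM in PS, 3.69, 3.80 and 3.34 in ULA and 5.77, 4.51 and 8.59 in OPC. Its log2FC of -3.81 in ULA vs PS (SE 0.16, adjusted p = 2.83e-08, limma) was the largest of any member there, and it was -3.19 in OPC vs PS (SE 0.16, adjusted p = 1.34e-07, limma). An unnamed gene overlaps Gdf6 on the opposite strand.

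Bmp3, which opposes other BMPs in bone, had 14.0, 14.1 and 14.0 FPKM in PS, 2.56, 2.85 and 3.10 in ULA and 3.69, 3.50 and 5.04 in OPC and was lower in both than in PS. Bmp7, a BMP of kidney and bone, was listed at 0 to 0.0378 FPKM over all libraries. The 4 genes Bmp2, Bmp4, Bmp6 and Bmp7 summed to 221 ± 2.99 FPKM in PS, 54.0 ± 1.51 in ULA and 133 ± 8.24 in OPC. Bmp2 made up 0.842 ± 0.339% of that sum in PS, 58.5 ± 2.50% in ULA and 67.1 ± 3.21% in OPC, and Bmp6 64.0 ± 0.858%, 30.5 ± 1.71% and 19.6 ± 1.84%.

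The remaining GDF ligands separated OPC from the other groups. Gdf15, a distant family member induced by cell stress, had 23.6, 22.5 and 22.3 FPKM in PS, 16.7, 13.9 and 17.3 in ULA and 40.8, 41.0 and 36.4 in OPC. It was lower in ULA than in PS and higher in OPC than in either, with a log2FC of 1.25 in OPC vs ULA (SE 0.08, adjusted p = 1.67e-06, limma). Gdf10, a relative of Bmp3, had 0.0443, 0 and 0.0880 FPKM in PS, 0.417, 0.230 and 0.174 in ULA and 1.52, 1.52 and 1.63 in OPC, and passed the filter on low values through the OPC libraries alone. The other 6 tested BMP and GDF ligands were all higher in OPC than in ULA (32.2% of all genes). Of these, 3 were DEGs (1.81% of all genes).

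Both activin subunit genes were lower on ULA and OPC than on PS. Inhba, the subunit of activin A, lies on chromosome 17 from 51898217 to 51912496 and had 153, 151 and 154 FPKM in PS, 59.4, 59.2 and 57.6 in ULA and 49.2, 44.7 and 50.0 in OPC. Its log2FC was -1.36 in ULA vs PS and -1.65 in OPC vs PS (SE 0.04 and adjusted p = 2.01e-09 for the latter, limma), and it was slightly lower in OPC than in ULA. Inhbb, the subunit of activin B, had 16.8, 16.0 and 16.8 FPKM in PS, 1.66, 1.91 and 1.52 in ULA and 5.16, 4.60 and 7.40 in OPC. Unlike Inhba, it was higher in OPC than in ULA, by 1.30 (SE 0.13, adjusted p = 3.92e-05, limma), with OPC replicate 3 the highest of the OPC libraries.

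OPC replicate 3 was the highest OPC library for 9 of the 10 members that were DEGs lower in OPC than in PS, all but Fstl3. It also had the highest smooth muscle marker sum of the OPC libraries, 268 FPKM beside 195 and 159.0. Whether it had a part in these values was not tested. Without that library, 17 members were called higher and 18 lower in OPC than in PS.

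**Figure D4:**
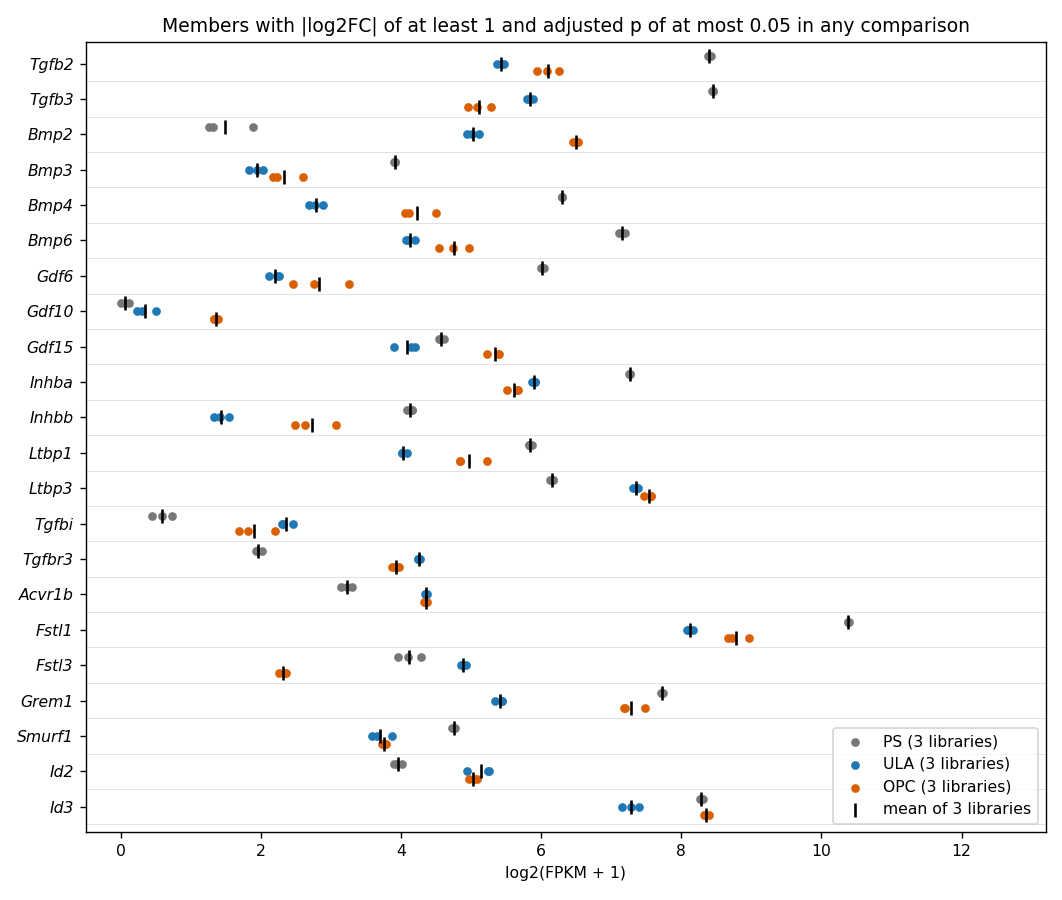
log2(FPKM + 1) of the 22 members that were DEGs in any comparison, with 1 point per library coloured by group and a black tick at the group mean. The PS points lie to the right for Tgfb2, Tgfb3, Bmp3, Bmp4, Bmp6, Gdf6 and both activin genes, and to the left for Bmp2, Ltbp3, Tgfbi, Tgfbr3, Acvr1b and Id2. For Fstl3 the OPC points lie to the left of the others.

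The latency proteins diverged. Ltbp1, which anchors latent TGF-β to the matrix, fell and Ltbp3 rose. Ltbp1, on chromosome 6 from 21203502 to 21600451, had 55.6, 55.6 and 57.4 FPKM in PS, 15.1, 15.1 and 15.9 in ULA and 27.6, 27.7 and 36.6 in OPC, with a log2FC of -1.80 in ULA vs PS (SE 0.09, adjusted p = 1.16e-07, limma) and -0.87 in OPC vs PS. Ltbp3, which also binds latent TGF-β, had 71.1, 70.9 and 68.7 FPKM in PS, 166, 157 and 164 in ULA and 188, 189 and 177 in OPC. Its log2FC was 1.20 in ULA vs PS and 1.38 in OPC vs PS (SE 0.04 and adjusted p = 2.3e-09 for the latter, limma).

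Ltbp2, a microfibril protein of the same family, was the most abundant of the 4 in every group, with 593 ± 3.99 FPKM (SD, n = 3) in PS, 460.2 ± 6.07 in ULA and 664 ± 17.6 in OPC. It was lower in ULA and higher in OPC than in PS, with log2FC of -0.37 and 0.16, and the second was not called after upper-quartile rescaling. Ltbp4 stayed at 1.85 to 3.31 FPKM over all libraries. The share of Ltbp3 in the RNA of the 4 genes was 9.72 ± 0.229% in PS, 25.4 ± 0.331% in ULA and 20.9 ± 1.12% in OPC.

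Of the other matrix genes, Tgfbi, an adhesion protein named for its induction by TGF-β, had 0.358, 0.652 and 0.507 FPKM in PS, 3.96, 3.94 and 4.47 in ULA and 2.52, 3.59 and 2.21 in OPC. It was higher on both substrates than on PS, with log2FC of 1.77 (SE 0.14, adjusted p = 2.54e-06, limma) and 1.31, but it passed the filter on low values only through the ULA and OPC libraries, where it was high. Bmp1, a protease that trims procollagen and cleaves the BMP antagonist chordin, rose in steps from 38.9 ± 0.178 FPKM in PS to 47.6 ± 1.12 in ULA and 65.3 ± 3.95 in OPC and was not a DEG.

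Receptor genes were mostly higher off PS. All 3 TGF-β receptor genes and 5 of the 6 tested BMP and activin receptor genes were higher in ULA than in PS. The corresponding counts in OPC vs PS were 3 of 3 and 5 of 6. Over all genes, 38.4% were higher in ULA vs PS and 40.4% in OPC vs PS. Tgfbr3, which encodes the co-receptor betaglycan, lies on chromosome 14 from 3506339 to 3682545 and had 2.84, 2.80 and 3.03 FPKM in PS, 18.0, 18.2 and 18.0 in ULA and 13.7, 14.7 and 14.1 in OPC. Its log2FC was 2.29 in ULA vs PS (SE 0.05, adjusted p = 4.29e-10, limma) and 1.96 in OPC vs PS (SE 0.05, adjusted p = 1.5e-09, limma). The groups did not overlap, and ULA was above OPC.

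Tgfbr1, the type I TGF-β receptor, averaged 5.60 ± 0.118 FPKM in PS, 10.2 ± 0.699 in ULA and 8.87 ± 0.301 in OPC, so its order followed that of Tgfbr3. Tgfbr2, the type II receptor, instead reached its highest level in OPC, with 28.4 ± 0.828 FPKM in PS, 39.4 ± 1.55 in ULA and 50.8 ± 2.75 in OPC. Neither gene was a DEG. In OPC vs ULA, Tgfbr2 was higher by 0.36 and Tgfbr1 was lower by a log2FC of -0.18, a call that Tgfbr1 lost without ULA replicate 1 or 2 or OPC replicate 2 or 3.

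Acvr1b, a type I receptor for activin, had 8.40, 7.80 and 8.84 FPKM in PS, 19.2, 19.7 and 19.5 in ULA and 19.7, 19.3 and 19.2 in OPC. Its log2FC was 1.13 in ULA vs PS (SE 0.05, adjusted p = 2.62e-08, limma) and 1.13 in OPC vs PS. The ULA and OPC libraries overlapped, with a difference of -0.01 (SE 0.05) on the log2 scale, and an uncharacterised gene overlaps Acvr1b on the opposite strand. Acvr2a, a type II receptor for activin and BMPs, rose from 8.30 ± 0.156 FPKM in PS to 11.9 ± 0.591 in ULA and 17.5 ± 0.437 in OPC, just short of a DEG in OPC vs PS at 0.99. Acvr2b, its close relative, was listed at 0.259 to 0.988 FPKM and was not tested.

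Of the BMP receptors, Bmpr1a, a type I receptor, rose from 29.1 ± 0.986 FPKM in PS to 33.9 ± 0.955 in ULA and 37.5 ± 1.23 in OPC, and its call in OPC vs ULA was lost after upper-quartile rescaling. Bmpr2, the type II receptor, was highest in ULA at 49.9 ± 1.58 FPKM, and its PS and OPC libraries overlapped at 41.2 ± 0.749 and 41.7 ± 1.30. An unnamed gene overlaps Bmpr2 on the opposite strand. Acvr1, a type I BMP receptor, was the one receptor gene lower in ULA than in PS, with 19.9 ± 0.635 FPKM in PS, 16.0 ± 0.793 in ULA and 21.7 ± 0.481 in OPC. Its small rise in OPC vs PS, with a log2FC of 0.12, was not called without PS replicate 1 or 3, ULA replicate 1 or any 1 of the OPC libraries, nor with upper-quartile rescaling, no filter on low values or no trend in the limma fit. Acvrl1, a type I receptor best known from endothelium, averaged 5.05 ± 0.480 FPKM in PS, 7.61 ± 0.0513 in ULA and 6.22 ± 0.245 in OPC.

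The antagonist genes among the members were mostly lower off PS, but OPC and ULA parted over Grem1 and Fstl3. With Nog set aside, 4 of 5 tested were lower in ULA (30.5% of all genes) and 4 of 5 in OPC (23.9% of all genes). Antagonists of the wider pathway list described below were instead mostly higher off PS. Of 8 tested there, 5 were higher and 1 lower in ULA, and 7 higher and 1 lower in OPC. The shares of all genes called higher were 38.4% and 40.4%. Grem1, which encodes the secreted BMP antagonist gremlin, lies on chromosome 3 from 105203309 to 105214989 and had 209.6, 208 and 212 FPKM in PS, 42.5, 42.5 and 39.5 in ULA and 144, 145 and 177 in OPC. Its log2FC was -2.31 in ULA vs PS (SE 0.07, adjusted p = 3.9e-09, limma) and 1.87 in OPC vs ULA (SE 0.07, adjusted p = 9.79e-08, limma). The OPC libraries thus lay nearer to the PS than to the ULA libraries, with OPC replicate 3 the highest of them.

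Fstl3, which binds and neutralises activins, lies on chromosome 7 from 12804919 to 12810570 and had 16.2, 18.5 and 14.5 FPKM in PS, 27.8, 28.6 and 29.5 in ULA and 4.13, 4.07 and 3.78 in OPC. It was higher in ULA and lower in OPC than in PS, with log2FC of 0.78 (SE 0.08, adjusted p = 1.39e-05, limma) and -1.79 (SE 0.08, adjusted p = 4.8e-08, limma). It was the only member that was a DEG lower in OPC than in ULA, at -2.57 (SE 0.08, adjusted p = 2.68e-08, limma).

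Fstl1, a secreted glycoprotein related to follistatin and made by cardiac stroma, was the most abundant member in PS, with 1326, 1341 and 1328 FPKM, and had 287, 269.6 and 274 in ULA and 420.0, 403 and 500.0 in OPC. Its log2FC was -2.26 in ULA vs PS (SE 0.07, adjusted p = 3.53e-09, limma) and -1.60 in OPC vs PS. Fst, follistatin itself, fell from 29.7 ± 1.89 FPKM in PS to 22.6 ± 2.01 in ULA, and its OPC libraries, at 29.0 ± 2.92, overlapped those of PS. Bambi, a decoy receptor without a kinase, was at 14.3 ± 0.179 FPKM in PS, 7.37 ± 0.942 in ULA and 7.84 ± 0.233 in OPC, lower than PS on both substrates. Nog, the BMP antagonist noggin, which passed the filter through the PS libraries, stayed low, at 1.74 ± 0.163 FPKM in PS, 0.622 ± 0.0491 in ULA and 0.793 ± 0.312 in OPC, and Chrdl1, chordin-like, was listed at 0.0297 to 0.511 FPKM.

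The receptor Smads and Smad4 changed little. Of these 5 genes, 0 were DEGs in any comparison, and their log2FC against PS ranged from -0.45 for Smad2 in ULA to 0.37 for Smad3 in OPC. Smad2 fell from 19.3 ± 0.0987 FPKM in PS to 13.9 ± 1.46 in ULA and 15.7 ± 0.657 in OPC, while Smad3, its partner in TGF-β signalling, rose from 16.6 ± 1.19 to 19.6 ± 0.431 and 21.8 ± 0.374. Their sum stayed within 33.5 ± 1.83 to 37.5 ± 0.785 FPKM, but the share of Smad2 in it went from 53.8 ± 1.73% in PS to 41.4 ± 2.16% in ULA and 42.0 ± 1.07% in OPC. The call of Smad3 as higher in OPC than in ULA was lost without any 1 of 7 libraries, PS replicate 2 or any ULA or OPC replicate, and also with upper-quartile rescaling, no filter on low values or no trend in the limma fit.

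Smad1 and Smad5, the BMP Smads, averaged 14.2 and 17.3 FPKM in PS. Smad5 was higher in OPC than in PS by 0.30 and than in ULA by 0.48, and Smad1 stayed at 13.2 to 16.7 FPKM over all libraries. Smad4, the shared partner, was highest in ULA, at 42.0 ± 2.49 FPKM, against 33.5 ± 1.71 in PS and 36.0 ± 1.35 in OPC.

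The inhibitory Smads and the Smurf genes, by contrast, were all lower in ULA than in PS (30.5% of all genes). Smad7, which blocks TGF-β and BMP receptors and is itself induced by TGF-β, averaged 44.1 ± 1.08 FPKM in PS, 26.9 ± 2.29 in ULA and 35.6 ± 0.806 in OPC. Its log2FC was -0.69 in ULA vs PS (SE 0.06, adjusted p = 2.94e-06, limma) and 0.39 in OPC vs ULA. Smad6, which blocks BMP signals, was at 23.1 ± 0.669 FPKM in PS and 24.7 ± 0.838 in OPC but at 17.1 ± 2.60 in ULA, where replicate 1 was the highest. OPC was thus above ULA for both inhibitory Smads.

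Smurf1, a ubiquitin ligase that marks Smads and receptors for breakdown, had 25.9, 26.3 and 25.5 FPKM in PS, 11.6, 13.6 and 11.0 in ULA and 12.6, 12.8 and 12.2 in OPC. Its log2FC was -1.05 in ULA vs PS (SE 0.07, adjusted p = 5.89e-07, limma) and -0.99 in OPC vs PS. The ULA and OPC libraries overlapped. Smurf2, its relative, moved less, from 31.6 ± 0.553 FPKM in PS to 28.0 ± 0.152 in ULA and 26.9 ± 0.659 in OPC.

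**Figure D5:**
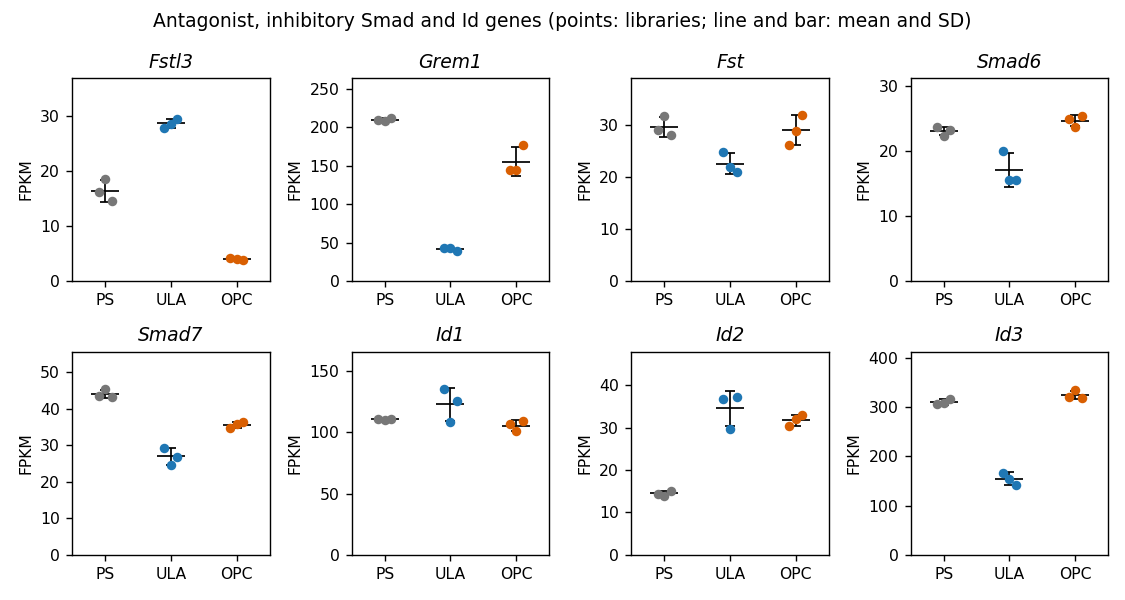
FPKM of 3 antagonists (Fstl3, Grem1, Fst), 2 inhibitory Smads (Smad6, Smad7) and 3 Id genes by group, with 1 point per library and the mean and SD as a black line and bar. ULA lies lowest for Grem1, Smad7 and Id3, and OPC lies lowest for Fstl3.

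The Id genes, which encode inhibitors of basic helix-loop-helix factors and are direct BMP targets, did not move together. Id3, on chromosome 5 from 154489590 to 154491223, had 306, 309 and 317 FPKM in PS, 167, 155 and 141 in ULA and 322, 334 and 319.6 in OPC. Its log2FC was -1.01 in ULA vs PS (SE 0.05, adjusted p = 1.67e-07, limma) and 1.07 in OPC vs ULA (SE 0.05, adjusted p = 4.99e-07, limma). In OPC vs PS the difference of 0.07 (SE 0.05) was not called, and it changed sign with upper-quartile rescaling.

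Id2, on chromosome 6 from 44348501 to 44363915, had 14.4, 13.9 and 15.1 FPKM in PS, 36.7, 29.8 and 37.2 in ULA and 30.4, 32.0 and 32.9 in OPC, and so was higher on both substrates than on PS. Its log2FC was 1.19 in ULA vs PS (SE 0.08, adjusted p = 7.18e-07, limma) and 1.08 in OPC vs PS (SE 0.08, adjusted p = 1.82e-06, limma). Id1 averaged 111 ± 0.442 FPKM in PS, 123 ± 13.5 in ULA and 106 ± 4.23 in OPC and was not called against PS. It was called lower in OPC than in ULA although those libraries overlapped, a call lost without ULA replicate 1 or 3 or OPC replicate 1 or 2, and with no filter on low values. The Id genes summed to 436 ± 6.04 FPKM in PS, 312 ± 24.2 in ULA and 463 ± 4.23 in OPC.

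A wider list of the pathway held 72 further genes, of which 65 were in the table and 42 were tested. In ULA vs PS 20 were higher and 10 lower, in OPC vs PS 27 were higher and 7 lower, and in OPC vs ULA 20 were higher and 9 lower, against the background percentages given above. Of the other antagonists, Dcn, the matrix proteoglycan decorin, which binds TGF-β, averaged 9.38 ± 0.461 FPKM in PS, 108 ± 2.80 in ULA and 42.1 ± 0.940 in OPC. Crim1, a membrane protein that binds BMPs, went the other way, from 91.8 ± 3.15 FPKM in PS to 10.7 ± 0.665 in ULA and 20.6 ± 3.06 in OPC.

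Other genes of the list act in the processing of TGF-β or in its release. Of these, Thbs1, the matrix protein thrombospondin, fell from 4714 ± 81.9 FPKM in PS to 653 ± 14.5 in ULA and 1084 ± 159 in OPC. The integrin chain gene Itgb8 rose on both substrates. Pcsk5, a proprotein convertase, rose from 3.32 ± 0.284 FPKM in PS to 13.5 ± 0.504 in ULA and 5.77 ± 0.284 in OPC. Of the other ligands, only Gdf11 and Inha were tested. Gdf11 had 14.8 ± 0.413 FPKM in OPC against 7.95 ± 0.489 in PS and 7.63 ± 0.984 in ULA, and Inha, the inhibin subunit, 7.14 ± 0.468 in ULA against 2.71 ± 0.162 in PS and 3.53 ± 0.270 in OPC.

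The co-receptor genes Eng and Nrp1 rose on both substrates, with log2FC of 0.68 and 0.77 in OPC vs PS, and Bmpr1b was not called in any comparison at 0.403 to 1.14 FPKM over all libraries. Of the other Smad regulators, Pmepa1, a TGF-β-induced inhibitor of Smad2 and Smad3, averaged 354 ± 11.4 FPKM in PS, 196 ± 5.71 in ULA and 253 ± 7.09 in OPC, an order it shared with Smad7. Tgif1, a nuclear corepressor of Smads, was higher on both substrates than on PS, with log2FC of 0.71 and 0.47. Map3k7, a kinase of the non-Smad branch, had 0.293, 0.360 and 0.452 FPKM in PS, 2.70, 0.600 and 3.29 in ULA and 1.75, 1.65 and 3.78 in OPC, a wide spread, and an unnamed gene overlaps it on the opposite strand.

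All 23 genes searched that are known as TGF-β targets were tested. In ULA vs PS, 7 were higher (38.4% of all genes) and 13 lower (30.5% of all genes). In OPC vs PS, 7 were higher (40.4% of all genes) and 14 lower (23.9% of all genes). In OPC vs ULA, 10 were higher (32.2% of all genes) and 10 lower (21.7% of all genes). The contractile genes Acta2, Tagln and Cnn1, which are also in the smooth muscle marker list, reached the largest |log2FC| of the list in any 1 comparison. Acta2, smooth muscle actin, had 2532, 2467 and 2460.1 FPKM in PS, 42.6, 42.8 and 39.6 in ULA and 92.3, 69.3 and 123 in OPC, with a log2FC of -5.87 in ULA vs PS (SE 0.16, adjusted p = 1.68e-09, limma). Tagln, transgelin, whose gene overlaps Sidt2 on the same strand, averaged 1849.6 ± 5.38, 33.5 ± 1.41 and 89.8 ± 26.0 FPKM in PS, ULA and OPC, and Cnn1, calponin, which passed the filter through the PS libraries alone, 22.7 ± 0.0793, 0.403 ± 0.123 and 0.125 ± 0.0969. The pair that follows was chosen after its values were seen. Ccn2, connective tissue growth factor, had a log2FC of -4.24 in ULA vs PS, beyond that of Cnn1, and in OPC vs ULA its 1.76 was the largest of the list. Postn, the matrix protein periostin, instead rose from 472 ± 4.91 FPKM in PS to 3589 ± 81.5 in ULA and 1759.5 ± 77.2 in OPC.

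Of 7 further BMP targets, 4 were tested. In ULA vs PS, 0 were higher (38.4% of all genes) and 3 lower (30.5% of all genes). In OPC vs PS, 1 was higher (40.4% of all genes) and 3 lower (23.9% of all genes). In OPC vs ULA, 1 was higher (32.2% of all genes) and 1 lower (21.7% of all genes). Atoh8, a helix-loop-helix factor induced by BMPs, had 6.46, 6.14 and 6.18 FPKM in PS, 3.88, 3.83 and 4.03 in ULA and 14.0, 13.0 and 13.3 in OPC, with no overlap and a log2FC of 1.55 in OPC vs ULA (SE 0.05, adjusted p = 4.25e-08, limma). Id4, the remaining Id gene, was lower in OPC, at 10.9 ± 1.11 FPKM, than in PS, at 15.0 ± 1.21, or ULA, at 15.1 ± 1.17. Msx1, a homeobox factor, was lower in both than in PS, at 6.53 ± 1.77 FPKM in ULA and 6.37 ± 0.830 in OPC against 9.75 ± 1.58.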

How the data were processed

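RNA of 9 CDC cultures, 3 per substrate, was sequenced. The paper's methods name HISAT2 with rn6, featureCounts and the DESeq2 package and an Omega extraction kit, whereas the submitters' processing notes name HISAT2 2.1, StringTie 1.3.0 and rn6, and their protocol Trizol. The tool that made the values is not stated. The authors deposited 1 table of values whose unit no source names, and they were taken to be FPKM. This rests on genes under 0.3 FPKM. Between PS replicate 1 and another library, 84.0 to 87.7% of 1263 to 1740 such genes differed by a ratio of whole numbers times 1 shared factor (within 0.01 log2 units), whereas other factors gave 7.13 to 9.97%. FPKM carry no absolute depth, and a 0 does not show absence.

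Groups follow the sample labels. log2(FPKM + 1) of genes with at least 1 FPKM in at least 3 libraries was fitted for 3 groups with limma 3.58.1 (R 4.3.3), using trended empirical Bayes moderation on 6 residual degrees of freedom, two-sided tests and Benjamini-Hochberg adjustment over 12513 genes. The DEG threshold is that of the study's methods, while a figure legend of the study gives a non-adjusted p. The fit was tested on simulated data. No 2 libraries held identical values.

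The members, the pathway, target and marker lists and the rules were chosen with earlier results of these data known. Members that were DEGs in any comparison are given by library, with full statistics for at most 3 per role and comparison, and up to 3 tested genes per role are named from the other lists. Genes searched but absent from the table are not analysed here. Gene positions are those deposited (rn6), and promoter runs are RefSeq sequences on GRCr8, for which Bmp1, Bmp2, Bmp7, Gdf6, Fst, Acvr1, Acvrl1, Smad6 and Smurf1 had no entry used here. Alternatives were no filter, a pseudocount of 0.1, upper-quartile rescaling, limma without a trend, a replicate block and leaving out each library. Counts without 3 members near the filter were added after seeing the data.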

Additional observations from a re-analysis of the deposited data

Results flagged for a closer look

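Of the 45 tested members, 4 were called in opposite directions against PS in ULA and in OPC, against 3.69% of all genes tested, and the difference was tested as OPC vs ULA in the same limma fit. Fstl3 was higher in ULA and lower in OPC than in PS, and its log2FC in OPC vs ULA was -2.57 (adjusted p = 2.68e-08, limma). Gdf15 was lower in ULA and higher in OPC than in PS, with a log2FC of 1.25 (adjusted p = 1.67e-06, limma). Ltbp2 showed the same directions as Gdf15, with a log2FC of 0.53 (adjusted p = 8.50e-07, limma). Acvr1 did so too, with a log2FC of 0.42 (adjusted p = 5.91e-05, limma). For each of the 4 genes the 3 OPC libraries lay on 1 side of the 3 ULA libraries. The rise of Ltbp2 in OPC vs PS was not called after upper-quartile rescaling, and that of Acvr1 was not called under that setting, without a filter, without a trend or without any 1 of 6 libraries.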

How the results depend on the processing

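The counts of members called higher and lower in the 3 comparisons stayed within 1.5 times their values under the 5 other settings and with each library left out. Without 1 library they ranged from 17 to 18 higher and 24 to 25 lower in ULA vs PS, from 17 to 19 higher and 18 to 18 lower in OPC vs PS, and from 24 to 27 higher and 8 to 10 lower in OPC vs ULA. Gdf10 was not tested without any 1 of the OPC libraries. Of the 135 values of single members, 6 changed sign under some setting, and 0 of these had been called. With upper-quartile rescaling, the log2FC in OPC vs PS became -0.0643 for Bmpr2 and -0.0137 for Id3, and that of Smurf1 in OPC vs ULA became -0.0095. With 1 library left out, the log2FC ranged in OPC vs PS from -0.0100 to 0.0296 for Bmpr2 and from -0.1056 to 0.0347 for Fst, and in OPC vs ULA from -0.0171 to 0.0026 for Acvr1b, from -0.0621 to 0.0244 for Smad1 and from -0.0033 to 0.1390 for Smurf1. The cause was not tested. Depth limits what can be said of genes near 1 FPKM, such as Gdf10, Nog, Tgfbi and Acvr2b.

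The replicate numbers shared only a name. Same-numbered libraries deviated together with a correlation of -0.039 to 0.054, and 2 of 9 libraries matched best a library of their own number. A replicate block added the call of Smad5 in ULA vs PS and took away that of Smad3 in OPC vs ULA. With it, 17 members were higher and 25 lower in ULA vs PS, 19 higher and 18 lower in OPC vs PS, and 25 higher and 10 lower in OPC vs ULA.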
